A study of Bos taurus with 9 samples.

Results

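This comparison set bovine fibroblasts after 3 days of chemical induction against the same kind of cells before induction. The members were all genes of the deposited expression table, measured in 3 samples labelled CiADCs-3d and in 3 day 0 samples called BEFs, which are 6 of the 9 samples of the series. Of the 21512 genes, 14020 had enough counts to be tested, and the other 7492 were not tested. The day 3 and day 0 samples were chosen by their titles.

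The study asked whether small molecules alone turn fibroblasts into adipocytes. BEFs are fibroblasts grown out from bovine ear skin and kept in DMEM with serum. For CiADCs the cells were moved to N2B27, a serum-free medium with N2 and B27 supplements, for 3 days, and 3 compounds were added, namely 10 µM RepSox, 500 µg/mL VPA and 1 µM TTNPB. All samples carry the genotype label WT, and the treatment field reads reprogramming for the day 0 samples as well. No untreated cells were collected on day 3, so the compounds, the change of medium and the time in culture cannot be told apart. The samples of a group are called biological repetitions, and their animals or inductions are not given. The p-values then measure only the spread between these samples, which may be technical.

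RepSox inhibits TGF-beta receptor I, a kinase whose signal keeps fibroblasts contractile and rich in collagen. VPA, valproic acid, inhibits histone deacetylases, which remove acetyl groups from histones. TTNPB is a synthetic retinoid that activates the retinoic acid receptors, transcription factors whose targets include the enzymes that break retinoic acid down. Adipocytes form from fibroblast-like precursors that leave the cell cycle, switch on PPARG and CEBPA and then make the proteins that store and release fat.

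The total expected count of the 6 samples, an estimate of the reads per gene that is not normalized, ran from 18509244 to 24071580. Levels below are FPKM, reads scaled by transcript length and by library size, as computed by the authors. Fold changes come from the counts, scaled by TMM and tested with the quasi-likelihood test of edgeR, and are log2(CiADCs-3d / BEFs) with their standard error (SE). A gene was called higher or lower at an adjusted p under 0.05 and a change of at least 2-fold. Replicate counts of BEFs lay closer together than those of CiADCs-3d. The median SD of a gene's log2 CPM (counts scaled to the library size) was 0.099 over the 3 BEFs and 0.171 over the 3 CiADCs-3d, and replicate 1 of CiADCs-3d lay furthest from the other 2.

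By day 3 more genes were higher than lower, and the rises were also the larger changes. The called genes numbered 2552 higher, 18.2% of those tested, and 1393 lower, 9.94%. On the adjusted p alone, 4329 genes (30.9%) were higher and 4083 (29.1%) lower. Of the genes that passed but changed less than 2-fold, 1777 were higher and 2690 lower. Rises of at least 16-fold were seen for 506 genes and falls of that size for 54. At 64-fold the counts were 219 and 6. The median log2 fold change of all genes tested was 0.01, with quartiles at -0.48 and 0.70. These are bulk samples, in which fewer cells of a kind and less RNA per cell cannot be told apart.

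The share of called genes depended on the level. Among the 157 genes of at least 1000 CPM in the higher group, 30.6% were higher and 25.5% lower. In the range of 10 to 100 CPM, which holds 7509 genes, the shares were 11.4% and 8.78%. Below 1 CPM, 35.5% of 984 genes were higher and 5.28% lower. Of 1862 tested genes under 1 CPM in BEFs, 1124 were called higher, and 125 of these reached 10 CPM on day 3. In the other direction, 251 of 1265 genes under 1 CPM on day 3 were called lower, and 11 of them had been at 10 CPM or more in BEFs. A low gene passes the filter on counts only where some group expresses it, so these counts are descriptions. With limma on log2(FPKM + 1), which understates changes of low genes, 1433 genes were higher and 928 lower.

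**Figure D1:**
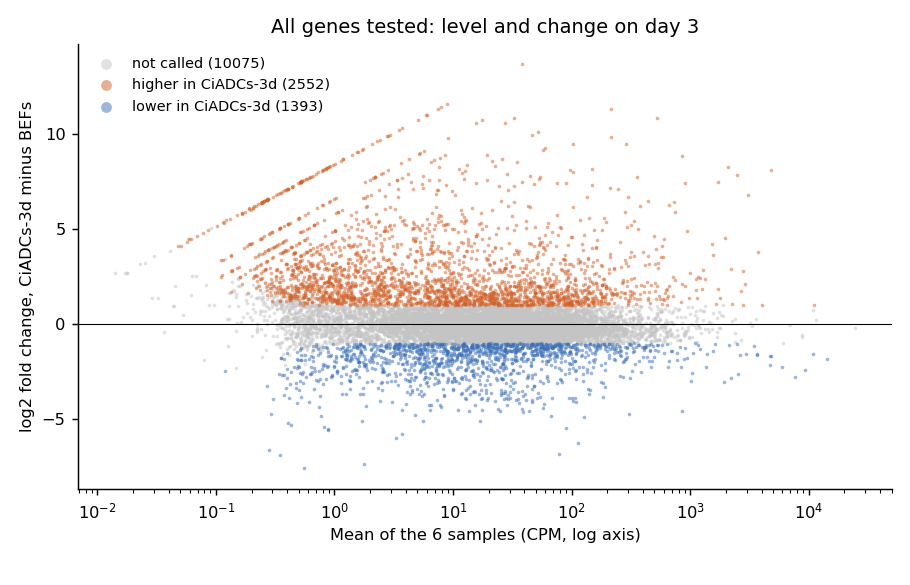
Each point is one of the 14020 genes tested, with the mean CPM of the 6 samples on a log axis against the fitted log2 fold change of CiADCs-3d over BEFs. The 2552 genes called higher reach further from 0 than the 1393 called lower, and the straight rows of points at the upper left are genes with a count of 0 or a few counts in BEFs, whose fitted size depends on the prior count.

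In BEFs the genes with the largest rises were each at or near 0. The 15 largest rises among genes of at least 10 CPM on day 3 were CYP26A1, CXCL13, S100A9, CAPN6, ZC3H12D, PLEKHS1, S100A8, HP, ADORA2A, UBD, GSTA1, TNFRSF9, S100A12, SFRP5 and CD74.

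S100A8, S100A9 and S100A12 encode calcium-binding proteins best known from neutrophils and stressed epithelia. S100A9 was at 0 FPKM in all 3 BEFs and at 30.1, 13.7 and 16.9 in CiADCs-3d replicates 1 to 3. S100A8 was likewise at 0 in BEFs and at 46.9, 20.4 and 22.4. Replicate 1 was the highest of the day 3 samples for both, as it was for S100A12 at 77.9, 45.4 and 47.9 FPKM. With each BEF library set at 3 counts, S100A9 was at least 119-fold higher and S100A8 at least 89-fold higher.

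CXCL13, a chemokine for B cells, was at 0 FPKM in BEFs and at 12.7, 21.2 and 14.3 on day 3, at least 133-fold higher on the same basis. TNFRSF9, a co-stimulatory receptor of the TNF receptor family, had 0, 0 and 0.06 FPKM in BEFs and 51.0, 33.0 and 33.0 in CiADCs-3d. The 3 BEFs held 2 counts of TNFRSF9 together, so the ratio of 1843 has a counting interval of 510 to 15224. ADORA2A, an adenosine receptor, rose from 2 counts in all BEFs to 36.3, 25.3 and 25.6 FPKM, a ratio of 2181 with an interval of 603 to 18011. The intervals cover counting error only, and the groups did not overlap for any of these genes. Samples of the 2 groups did not overlap for 98.9% of all called genes and 70.4% of all genes tested.

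SFRP5, a secreted antagonist of Wnt ligands, went from 0.08, 0.05 and 0.03 FPKM to 50.8, 57.9 and 73.3 (log2 fold change 10.12, SE 0.46, adjusted p = 3.13e-09). Its relative SFRP4 went from 0.83, 1.08 and 1.32 to 172, 182 and 180 FPKM (7.34, SE 0.22). GSTA1, a glutathione transferase, was at 0, 0 and 0.06 FPKM in BEFs and at 25.6, 60.6 and 45.1 on day 3. GSTA1 belongs to a family of close copies, between which reads can be split.

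CD74, the invariant chain that guides MHC class II molecules, was at 0.03, 0.09 and 0.06 FPKM in BEFs and at 23.8, 110 and 58.4 on day 3. UBD, a ubiquitin-like modifier, had no count in BEFs and 4.80, 13.9 and 9.33 FPKM on day 3, and the locus LOC504548, which the table gives the same symbol, showed 4.38, 19.96 and 9.93. For CD74, UBD and LOC504548 replicate 1 was the lowest and replicate 2 the highest day 3 sample, the reverse of the S100 genes. How far UBD and LOC504548 share reads was not tested. ZC3H12D, a ribonuclease gene of the regnase family, and PLEKHS1 were also at 0 in BEFs, and reached 3.80 ± 1.82 and 3.26 ± 0.97 FPKM (SD, n = 3).

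**Figure D2:**
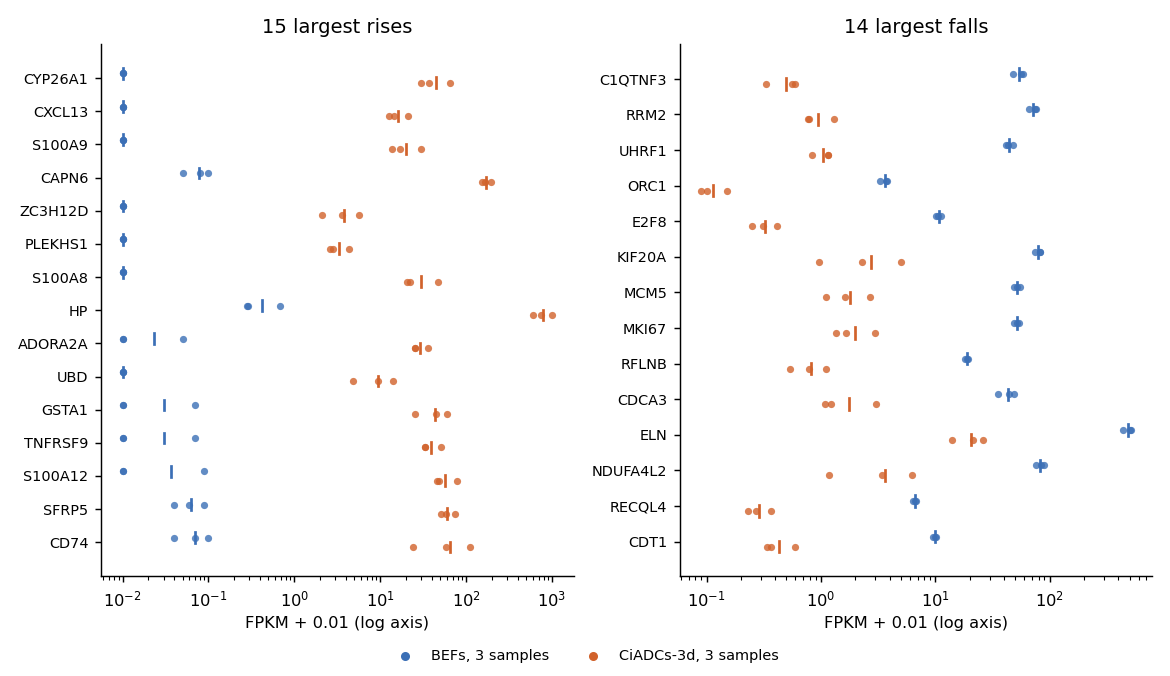
FPKM + 0.01 on a log axis for the 15 largest rises (left) and 14 of the largest falls (right) among called genes of at least 10 CPM in the higher group, with a point per sample and a bar at the mean of 3. The 2 groups are apart for each gene, as for 98.9% of all called genes. The rises start at or near 0 in BEFs, and most of the falls end between 0.1 and 4 FPKM.

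Among the largest falls were C1QTNF3, RRM2, UHRF1, ORC1, E2F8, KIF20A, MCM5, MKI67, RFLNB, CDCA3, ELN, NDUFA4L2, RECQL4 and CDT1. UHRF1, which brings the maintenance DNA methyltransferase to newly copied DNA, fell from 42.9, 41.4 and 48.1 FPKM to 1.14, 0.82 and 1.14 (-5.44, SE 0.17, adjusted p = 1.71e-10). MCM5, a subunit of the replicative helicase, went from 51.6, 49.1 and 55.0 to 1.11, 1.61 and 2.68 FPKM. KIF20A, a kinesin of late mitosis, went from 82.5, 82.3 and 74.9 to 0.95, 2.26 and 4.96.

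Replicate 3 kept the most of MCM5, KIF20A, MKI67 and CDCA3 among the day 3 samples. The groups stayed apart, as they did for 98.9% of all called genes. CDT1, which loads the helicase at origins, was at 9.55, 10.1 and 9.88 FPKM in BEFs and at 0.33, 0.36 and 0.58 on day 3. ORC1, a subunit of the origin recognition complex, was at 3.28, 3.80 and 3.73 FPKM and then at 0.09, 0.08 and 0.14.

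Other falls lay outside cell division. ELN encodes elastin, the core of elastic fibres, and dropped from 509, 515 and 442 FPKM to 21.2, 13.9 and 26.3 (-4.58, SE 0.22, adjusted p = 4.72e-09). NDUFA4L2, a hypoxia-responsive relative of a respiratory chain subunit, went from 89.7, 83.4 and 76.2 to 6.23, 1.16 and 3.43. RFLNB, a partner of filamin, went from 19.1, 19.4 and 18.3 to 1.10, 0.53 and 0.78. Genes that reached a count of 0 in all 3 day 3 samples had been low to begin with, GPRIN1 at 0.23, 0.17 and 0.35 FPKM in BEFs being one of them.

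The make-up of the most abundant transcripts changed. S100A4, SPARC, FN1 and MT-CO1 stood among the 10 highest of both groups. VIM, COL1A1, COL1A2, ACTG1, ACTB and THBS1 left that list by day 3. MT-CO2, MT-CO3, FTH1, CFB, SERPINE2 and GPX3 entered it. The 10 genes of highest mean FPKM in BEFs made up 8.55% to 8.58% of all FPKM in these samples and 5.61% to 6.36% in CiADCs-3d. The 10 highest of day 3 made up 4.34% to 4.54% in BEFs and 9.12% to 9.86% on day 3. Each set of 10 was chosen by its level in the group named, so a lower share in the other group follows in part from that choice.

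FTH1, the heavy chain of the iron store ferritin, stood at 761, 757 and 760 FPKM in BEFs and at 5194, 6213 and 4509 on day 3 (2.79, SE 0.13, adjusted p = 4.13e-09). CFB, complement factor B, rose from 15.4, 14.7 and 12.4 to 3537, 4600 and 3619 FPKM (8.09, SE 0.20). GPX3, a secreted glutathione peroxidase, rose from 12.5, 15.1 and 12.5 to 3201, 3211 and 2887 (7.84, SE 0.16). CFB and GPX3 thus came to lie among the 10 most abundant transcripts from a level of about 14 FPKM, and their replicates were close.

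SERPINE2, a protease inhibitor of the extracellular space, went from 224, 227 and 258 FPKM to 3564, 3318 and 3018. IGFBP3, a carrier of insulin-like growth factors, went from 21.5, 21.4 and 24.3 to 2175, 2545 and 2780. CRABP1, which binds retinoic acid in the cytoplasm, went from 8.84, 9.98 and 14.6 to 1741, 2044 and 1991. ADM, the vasoactive peptide adrenomedullin, went from 95.6 ± 6.73 to 2190.4 ± 171 FPKM, and CST3, the cysteine protease inhibitor cystatin C, from 361 ± 9.41 to 2375.9 ± 28.3 (SD, n = 3).

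S100A4, a calcium-binding protein and a fibroblast marker, rose 2.08-fold, from 2839, 2753 and 3385 to 5274, 7132 and 6478 FPKM. The mitochondrial transcript MT-CO1 (COX1 in the reference table), a subunit of cytochrome oxidase, was at 5264, 5347 and 4687 in BEFs and at 10098, 7826 and 8629 on day 3 (0.77, SE 0.14, adjusted p = 0.000362), under the 2-fold mark. Mitochondrially encoded transcripts together took 2.98% to 3.36% of FPKM in BEFs and 4.67% to 6.05% on day 3, with the highest share in replicate 1.

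The largest losses in FPKM were of the cytoskeleton and matrix. TUBA1B, an alpha-tubulin, fell from 2011, 1983 and 1893 to 228, 230 and 257 FPKM (-3.06, SE 0.13, adjusted p = 1.64e-09). THBS1, the matricellular protein thrombospondin 1, fell from 2904, 2897 and 2827 to 715, 365 and 554. TNC, tenascin C, fell from 1814, 1777 and 1844 to 300, 350 and 314. BGN, the proteoglycan biglycan, fell from 1832 ± 94.6 to 610 ± 176 FPKM (SD, n = 3), with replicate 2 the lowest.

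Other abundant matrix genes did not pass the test. FN1, fibronectin, was at 3456, 3389 and 3127 FPKM in BEFs and at 2707, 3121 and 3001 on day 3 (-0.20, SE 0.14, adjusted p = 0.253). SPARC was at 3388, 3310 and 3217 and then at 2417, 3601 and 3617 (-0.06, SE 0.15, adjusted p = 0.76), with the 2 groups overlapping.

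**Figure D3:**
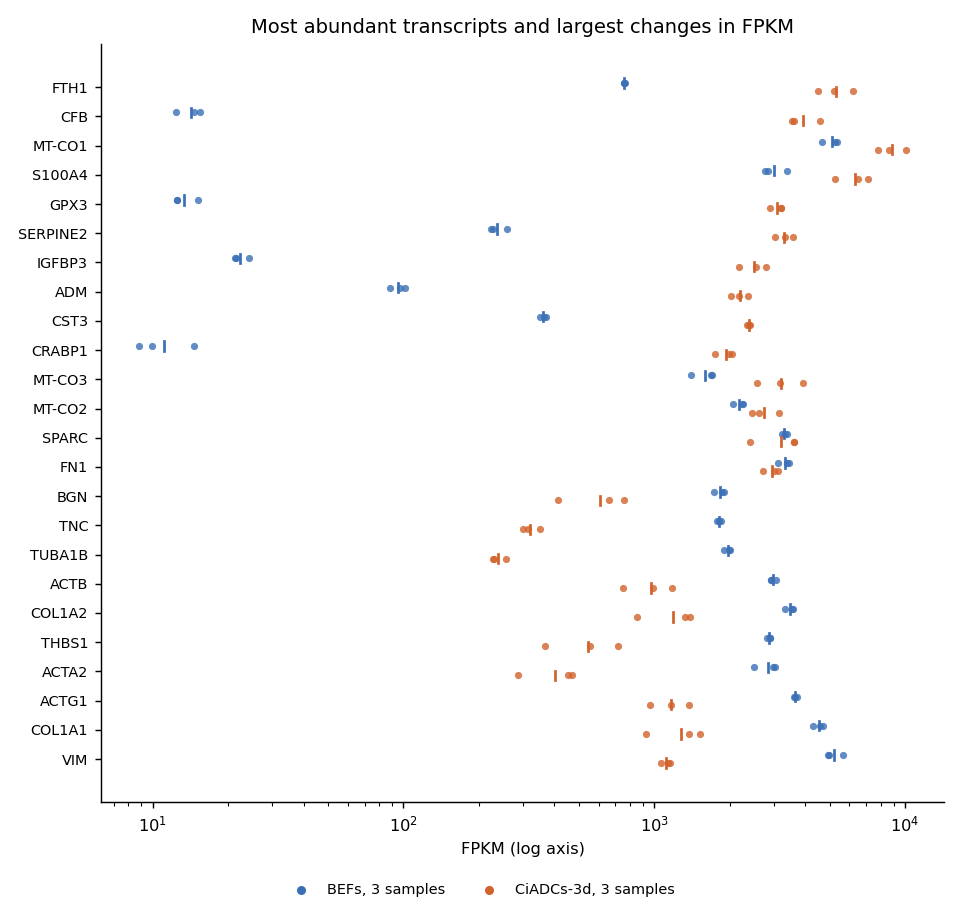
FPKM on a log axis for the 10 most abundant genes of each group and the 10 largest rises and falls in mean FPKM, ordered by the difference, with a point per sample and a bar at the mean of 3. FTH1 and CFB gained the most, VIM, COL1A1 and ACTG1 lost the most, and FN1 and SPARC changed little beside these.

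The table annotates 8740 genes with a KEGG pathway and 12721 with a GO process. Among tested genes with a pathway, 20.6% were higher and 10.1% lower, and among those without one 16.7% and 9.82%. Counts for a pathway below are of its tested members, beside 18.2% and 9.94% over all genes, with the median log2 fold change beside 0.01. The same gene can stand in several pathways. Over the table's classes of pathways, the median was lowest for Transcription (-0.37 over 200 genes), Replication and repair (-0.35 over 178) and Translation (-0.31 over 446). High fitted medians were those of Signaling molecules and interaction, at 1.11 over 395 genes of 870 annotated, and Membrane transport, at 1.07 over 40 of 97. On log2(CPM + 0.5) the medians by day 3 replicate were 0.75, 0.72 and 0.73 for the first class and 0.85, 0.92 and 1.09 for the second.

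Many genes that copy and divide the genome fell. Of 35 tested genes of the pathway DNA replication, 25 were lower and 0 higher, with a median of -1.53, and 32 were lower on the adjusted p alone. Cell cycle had 47 lower and 6 higher of 123 (median -0.78). Mismatch repair had 10 lower of 22, Base excision repair 13 of 33 and Homologous recombination 14 of 40, with 0 higher in each. The median of Mismatch repair was -0.96, that of Base excision repair -0.70 and that of Homologous recombination -0.64. Nucleotide excision repair had 10 higher and 11 lower of 59 (-0.07), and the GO process DNA replication 5 higher and 14 lower of 66 (-0.19).

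MCM2, MCM3 and MCM4, further subunits of the helicase, fell by close amounts, by 3.87, 3.89 and 3.90 on the log2 scale. MCM4 went from 61.3, 64.0 and 65.4 FPKM to 3.38, 4.10 and 5.14. PCNA, the sliding clamp of the polymerases and a member of 3 of these pathways, fell from 56.3, 56.1 and 56.5 to 6.03, 7.81 and 7.52 FPKM, 7.99-fold. LIG1, the ligase that joins Okazaki fragments, fell by 2.80.

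Mitotic regulators fell too, and the genes named were chosen by their large changes. CDC20, the activator of the anaphase-promoting complex, went from 62.1, 60.6 and 59.5 FPKM to 1.82, 1.92 and 4.70 (-4.42, SE 0.30). CCNA2, cyclin A2, went from 41.7, 42.7 and 35.8 to 1.22, 1.49 and 2.64, and FOXM1, a transcription factor of the G2 and M phases, from 9.79, 9.27 and 9.40 to 0.33, 0.17 and 0.75. For CDC20, CCNA2 and FOXM1, replicate 3 again held the highest level on day 3. The GO component spindle had 29 lower and 1 higher of 88 genes (median -0.66), and chromosome, centromeric region 15 lower and 1 higher of 37 (-0.83).

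BRCA1 and BLM, which act in repair by recombination, fell by 3.02 and 3.01. FANCD2, a member of the Fanconi anemia pathway, fell by 3.56 (SE 0.24). The members of Cell cycle that rose include SMAD3, the signal transducer of TGF-beta, at 29.8, 30.0 and 34.1 FPKM in BEFs and 146, 173 and 153 on day 3, and CDKN2B, an inhibitor of the G1 kinases, at 10.1, 9.98 and 8.68 and then 49.0, 37.4 and 34.5. In the p53 signaling pathway, 14 of 75 genes were higher and 18 lower (median -0.15). Its rises were led by IGFBP3 and by SESN3, a sestrin that responds to stress, at 10.8, 11.5 and 9.76 FPKM and then 98.1, 106 and 104. Its falls were led by RRM2 and CCNB2, which the other pathways also hold.

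Genes that handle RNA and make proteins moved little, and mostly down. In Spliceosome 15 of 127 genes were lower and 3 higher at 2-fold, and 85 were lower on the adjusted p alone (median -0.50). SNRPA, a protein of the U1 particle, went from 30.3, 33.3 and 31.0 to 6.47, 8.72 and 7.22 FPKM (-2.09, SE 0.14). Of 140 tested genes in Ribosome, 1 was higher and 1 lower, and 66 were lower on the adjusted p alone (median -0.32). The one called lower was MRPS6 of the mitochondrial ribosome (-1.57, SE 0.14). Ribosome biogenesis had 7 lower and 0 higher of 74, among them FBL, the methyltransferase fibrillarin, at 63.7 ± 1.32 and then 21.0 ± 2.32 FPKM (SD, n = 3).

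The Proteasome divided by subunit. Its median was -0.24 over 43 genes, 21 of which were lower on the adjusted p alone, and 0 were called lower. The 5 called higher included PSMB8, PSMB9 and PSMB10, the catalytic subunits of the immunoproteasome, and PSME2, a subunit of an activator of the proteasome. PSMB10 rose from 14.7, 17.5 and 18.9 FPKM to 133, 156 and 147 (2.84, SE 0.13, adjusted p = 3.01e-09). PSMB8 rose from 13.5, 12.6 and 14.1 to 56.8, 65.6 and 61.3, and PSMB9 from 4.90, 4.60 and 5.65 to 18.5, 21.8 and 19.7. The day 3 replicates lay close together for the 3 subunits.

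Sets of matrix genes held both rises and falls. ECM-receptor interaction had 28 higher and 10 lower of 71 (median 0.25), while the summed mean FPKM of the tested members was 24276.4 in BEFs and 13242.5 on day 3. The GO process extracellular matrix organization had 8 higher and 12 lower of 41 (median -0.48), and the GO component proteinaceous extracellular matrix 9 and 10 of 45 (-0.19). With at least 10 counts required in every sample the ECM-receptor median was 0.03.

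Among the rises, TNXB, tenascin X, went from 0.93, 1.04 and 1.93 FPKM to 80.2, 132 and 97.5 (6.30, SE 0.31). NID1, nidogen of the basement membrane, went from 26.9, 25.8 and 27.9 to 439, 543 and 523 (4.20, SE 0.14). VWF, the blood clotting protein von Willebrand factor and an endothelial marker, went from 0.72, 0.81 and 1.05 to 34.8, 50.4 and 38.5. Among the falls, ITGA11, a collagen-binding integrin of fibroblasts, went from 18.9, 19.1 and 17.8 to 1.04, 1.08 and 1.68 (-3.88, SE 0.17). ACAN, the cartilage proteoglycan aggrecan, went from 40.9, 41.3 and 41.6 to 5.60, 4.40 and 5.03.

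Focal adhesion had 43 higher and 27 lower of 177 genes, with a median of -0.13. Cell adhesion molecules had 44 higher and 5 lower of 87 tested genes, out of 158 annotated, with a median of 1.11, which was 0.46 with limma without a filter. VCAM1, which binds leukocytes, rose from 4.46, 4.49 and 3.94 FPKM to 171, 111 and 127 (4.96, SE 0.19). The tight junction proteins F11R and OCLN rose from 1.61 ± 0.20 to 42.5 ± 5.47 and from 0.47 ± 0.18 to 9.42 ± 1.60 FPKM (SD, n = 3).

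Many cytokine, chemokine and complement genes rose. Of 155 tested genes in Cytokine-cytokine receptor interaction, 78 were higher and 10 lower (median 1.13), and 192 further annotated genes were not tested. Complement and coagulation cascades had 25 higher and 4 lower of 45 tested genes, out of 99 annotated (median 1.09). Its summed FPKM was 1297.1 in BEFs and 8260.7 on day 3. TNF signaling had 42 higher and 6 lower of 104 (0.60), IL-17 signaling 28 and 6 of 73 (0.55), and NF-kappa B signaling 28 and 6 of 85 (0.34). The small GO term cytokine activity had 15 higher and 1 lower of 19 tested genes, out of 40 annotated. A gene silent in BEFs was tested only where another group expressed it, so these shares are descriptions. The Chemokine signaling pathway had 36 higher and 9 lower of 127 (-0.01), and the GO process immune response 1 higher and 2 lower of 10 (-0.40). With no filter and limma on log2(FPKM + 1), the median was 0.50 for Cytokine-cytokine receptor interaction and 0.57 for the complement pathway.

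C3, the central complement protein, rose from 4.15, 3.77 and 3.28 FPKM to 488, 623 and 878 (7.46, SE 0.39, adjusted p = 1.08e-08). GRO1, a chemokine for neutrophils, rose from 0.67, 0.42 and 1.68 to 284, 287 and 250, and CXCL8, another of these, from 0.40, 0.17 and 0.47 to 93.5, 59.2 and 62.2. CCL20 went from 0, 0.21 and 0.10 to 67.6, 33.9 and 56.9 FPKM. The chemokine levels were apart between the groups in all samples, as for 98.9% of all called genes.

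IL6 spread most among the day 3 samples of these genes, at 143 FPKM in replicate 1, 34.9 in replicate 2 and 52.0 in replicate 3, against 3.29, 3.25 and 5.23 in BEFs (4.25, SE 0.46, adjusted p = 6.14e-06). IL1A was likewise highest in replicate 1, at 18.4, 7.83 and 10.4. NFKBIA, the inhibitor that NF-kappa B itself induces, rose from 6.49, 6.43 and 9.29 to 73.0, 77.5 and 89.7 (3.42, SE 0.16). MLKL, the executor of necroptosis, fell from 6.89 ± 0.31 to 1.53 ± 0.09 FPKM (SD, n = 3).

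Antigen processing and presentation had 24 higher and 2 lower of 52 (median 0.85), and B2M, the light chain of MHC class I, rose from 353, 354 and 329 FPKM to 737, 779 and 723 (1.09, SE 0.10). Chosen by their values among 300 pathways with 15 to 300 tested genes, the highest medians were mostly those of disease pathways. Examples were African trypanosomiasis (3.10 over 31 tested genes of 53 annotated) and Graft-versus-host disease (2.43 over 21 of 59). These were 0.60 and 1.44 with limma without a filter.

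Pathways of TGF-beta and Wnt signalling showed no common direction in their member counts. TGF-beta signaling had 11 higher and 6 lower of 68 (median -0.25). SMAD7, the feedback inhibitor, fell from 11.1, 10.8 and 11.4 FPKM to 3.38, 1.61 and 2.04 (-2.27, SE 0.22), and TGFBR2, the type II receptor, rose from 15.99, 16.5 and 15.5 to 52.9, 74.8 and 77.5 (2.09, SE 0.17). Wnt signaling had 26 higher and 15 lower of 124 (-0.04). Beside SFRP5 and SFRP4, FZD7, a Wnt receptor, rose from 2.24, 2.64 and 3.42 to 54.5, 56.2 and 59.0, and the ligand gene WNT9A fell from 2.87, 2.72 and 2.96 to 0.45, 0.31 and 0.28.

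MAPK signaling had 60 higher and 27 lower of 236 (median 0.12), and PI3K-Akt signaling 71 and 31 of 269 (-0.01), both with shares higher above 18.2%. Their rises included growth factors near 0 in BEFs. VEGFD, a lymphatic growth factor, went from 0.05, 0.16 and 0.06 FPKM to 17.2, 17.2 and 21.8. PDGFB went from 0, 0.04 and 0.04 to 4.20, 4.96 and 4.07, and LPAR3, a receptor for lysophosphatidic acid, from 0.03, 0.05 and 0.01 to 16.1, 13.9 and 11.8. Neuroactive ligand-receptor interaction, mostly receptors, had 53 higher and 12 lower of 93 tested genes, out of 306 annotated.

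Retinoid metabolism held many rises. Retinol metabolism had 13 higher and 1 lower of 21 tested genes, out of 70 annotated, with a fitted median of 1.99. On log2(CPM + 0.5) its medians by day 3 replicate were 1.38, 0.87 and 1.19, and with no filter and limma on log2(FPKM + 1) the median was 0.60. CYP26B1, which with CYP26A1 breaks down retinoic acid, rose from 2.96, 3.42 and 6.62 FPKM to 1222, 1402 and 1208 (8.28, SE 0.26, adjusted p = 1.71e-10). AOX1, an aldehyde oxidase, rose from 3.05, 3.25 and 3.38 to 111, 160 and 149. The one called lower was RDH10, which makes retinaldehyde from retinol, at 11.5, 13.8 and 14.1 and then 6.48, 4.18 and 4.97 (-1.36, SE 0.16). RARB, a retinoic acid receptor gene and a textbook target of these receptors, rose from 0.16, 0.33 and 0.20 FPKM to 60.6, 67.1 and 57.5 (8.09, SE 0.18).

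Oxidant defence and detoxification held many called genes. Glutathione metabolism had 21 higher and 7 lower of 50 (median 0.59), and Drug metabolism - cytochrome P450 17 and 3 of 31 (1.44, or 0.70 with limma without a filter). SOD2, the superoxide dismutase of mitochondria, rose from 15.7, 16.4 and 20.3 FPKM to 999, 1162 and 999 (5.89, SE 0.17), and CYP1B1 from 4.18, 4.31 and 4.44 to 158, 120 and 125 (4.94, SE 0.13). PRDX1, a peroxiredoxin, fell from 651, 642 and 679 to 222, 289 and 264 (-1.36, SE 0.16). Arachidonic acid metabolism had 18 higher and 2 lower of 37 tested genes, out of 86 annotated (1.04, or 0.33 with limma without a filter). PTGES, a prostaglandin E synthase, rose from 0.38, 0.58 and 0.41 FPKM to 104, 110 and 100, and PTGIS, the prostacyclin synthase, fell from 90.1, 87.8 and 94.1 to 23.4, 27.5 and 32.5.

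Most lipid pathways held more rises than falls, as did all genes tested. PPAR signaling had 24 higher and 5 lower of 58 (median 0.58), Adipocytokine signaling 19 and 2 of 56 (0.58), Cholesterol metabolism 14 and 2 of 35 (0.46) and Fatty acid degradation 8 and 0 of 33 (0.49). Regulation of lipolysis in adipocyte had 10 higher and 3 lower of 39, with a median of -0.15. Glycerolipid metabolism had 15 and 8 of 49 (0.49) and Fat digestion and absorption 7 and 3 of 21 (0.21). Fatty acid biosynthesis had 5 higher and 1 lower of 11. Its rises were acyl-CoA synthetases, which activate fatty acids and which degradation shares, and the gene called lower was FASN, the fatty acid synthase itself, at 45.0, 44.5 and 56.1 FPKM and then 21.3, 21.0 and 22.7 (-1.18, SE 0.13). ACSL1, one of the synthetases, rose from 11.5, 11.6 and 11.6 to 85.1, 72.2 and 73.0 (2.72, SE 0.15).

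ANGPTL4, an inhibitor of lipoprotein lipase, rose from 3.17, 3.28 and 2.51 FPKM to 366, 271 and 295 (6.68, SE 0.18, adjusted p = 8.42e-11). FADS1 and FADS2, desaturases of polyunsaturated fatty acids, rose by 3.59 and 3.16 on the log2 scale. CPT2, a carnitine palmitoyltransferase of mitochondria, rose from 21.8, 21.8 and 20.8 to 154, 194 and 156. In glycerolipid synthesis, GPAT3 rose from 2.13, 3.21 and 1.95 to 104, 41.8 and 53.5, while AGPAT2, the next step, fell from 25.8, 26.6 and 24.2 to 5.59, 4.68 and 3.96. FABP5, a fatty acid carrier, fell from 13.8, 13.8 and 12.7 to 3.83, 1.48 and 2.39.

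In sterol synthesis, Steroid biosynthesis had 3 higher (17.6%) and 1 lower (5.88%) of 17 (median 0.12), beside 18.2% and 9.94% of all genes. Terpenoid backbone biosynthesis had 0 higher and 1 lower of 20 (-0.06). The gene called lower in Terpenoid backbone biosynthesis was HMGCS1, the synthase at the head of the pathway. HMGCS1 was at 16.9, 19.0 and 23.2 FPKM and then 5.47, 5.63 and 4.62 (-1.93, SE 0.18). The GO process fat cell differentiation had 25 higher and 10 lower of 78 (0.28), with PLAC8B the largest rise and ADIRF, adipogenesis regulatory factor, the largest fall, from 28.6 ± 5.80 to 4.02 ± 1.17 FPKM (SD, n = 3).

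In energy metabolism, Oxidative phosphorylation and the citrate cycle held few called genes. Oxidative phosphorylation had 4 higher and 2 lower of 122 (median -0.04), and the citrate cycle 1 higher and 0 lower of 28 (0.08). The rises in Oxidative phosphorylation included CYTB, the mitochondrially encoded cytochrome b, at 949, 951 and 898 FPKM and then 2284, 1615 and 2027. Glycolysis / Gluconeogenesis had 5 higher and 7 lower of 51, and its tested members summed to 9101.0 FPKM in BEFs and 5778.1 on day 3. ENO3, the enolase of muscle, fell from 227, 225 and 226 to 21.9, 25.6 and 31.3 (-3.11, SE 0.13), TPI1 from 529, 512 and 530 to 178, 154 and 149, and PKM from 1275, 1247 and 1491 to 565, 681 and 709. FBP1, which runs the pathway in reverse, rose from 0.73, 0.33 and 0.35 to 13.8, 19.3 and 24.3.

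The GO process glycolytic process gave another picture, with 9 higher and 0 lower of 16 genes (median 1.17). Its called members included FBP1 (5.33) and, named here after their values were seen, 3 regulators rather than enzymes. These were IGF1, an insulin-like growth factor (4.57), MLXIPL, a glucose-responsive transcription factor (4.14), and STAT3 (2.03). The table's GO terms are broad and unevenly filled, with 8 tested genes under nucleus and 1 under mitochondrion. Small terms are also reported here, such as immune response with 10 tested genes, and their counts rest on few genes.

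Lysosome and Peroxisome had few falls. Lysosome had 16 higher and 3 lower of 118 (median 0.16) and Peroxisome 26 and 2 of 94 (0.32). CTSC, cathepsin C, rose from 18.1, 17.5 and 18.6 FPKM to 421, 481 and 433 (4.65, SE 0.11), while CTSK, the collagen-degrading cathepsin K, fell from 442, 438 and 463 to 152, 196 and 171 (-1.39, SE 0.12).

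**Figure D4:**
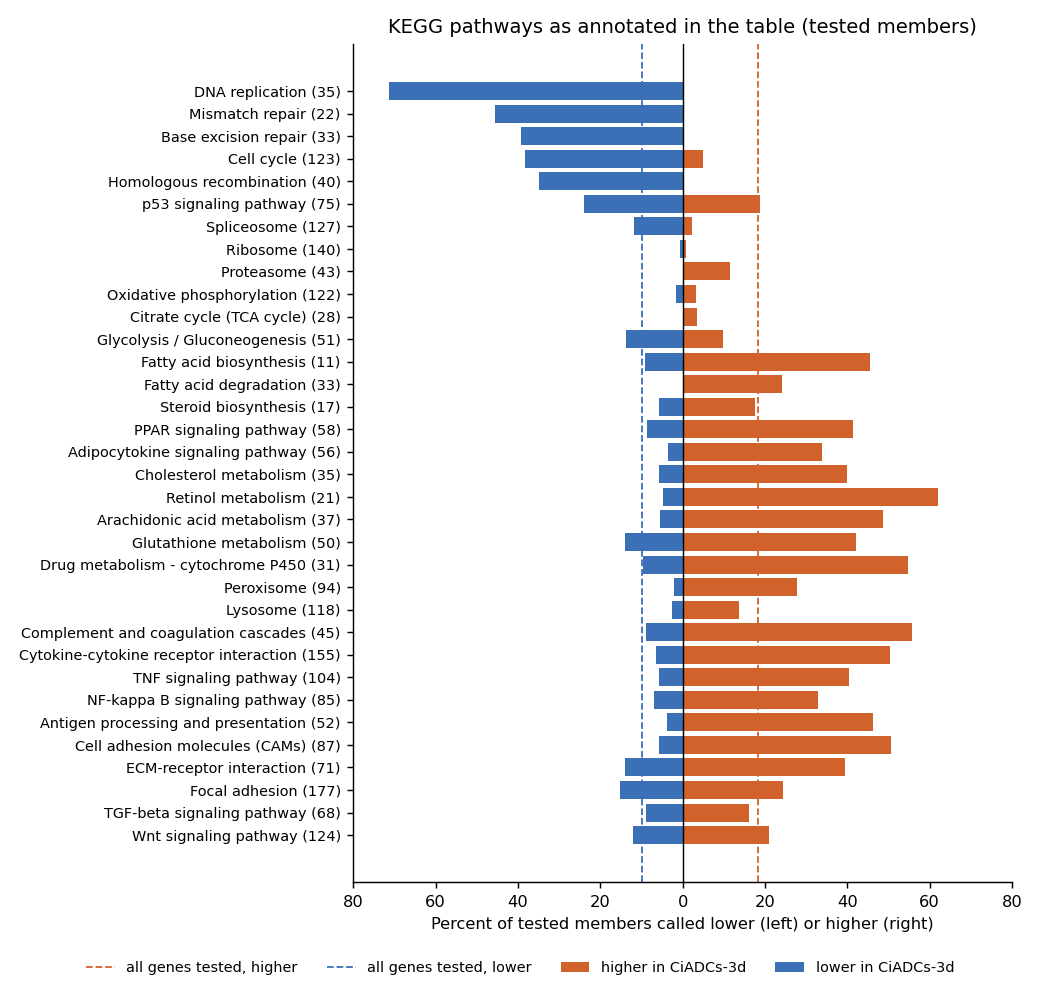
For 34 KEGG pathways as annotated in the table, bars give the percent of tested members called lower (left) and higher (right) on day 3, with the number tested beside its name and dashed lines at the shares of all genes, 9.94% lower and 18.2% higher. Replication and repair pathways have bars to the left, Ribosome and Oxidative phosphorylation hardly any, and retinol, complement and cytokine pathways the longest bars to the right.

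Genes with a transcription factor term in the table were called at about the share of all genes. Of 411 tested, 77 (18.7%) were higher and 38 (9.25%) lower, and their median was 0.04. The terms do not cover every such factor. RARB and FOXM1, described above, are not among these genes, so the rankings hold only for genes with a term. Among them, the largest rises of at least 10 CPM were FOSB, HOXA5, IRF1, TP63, HLX, PKNOX2, LOC614260 and HIC1. IRF1, a factor of the interferon response, rose from 12.8, 12.3 and 13.2 FPKM to 125, 100 and 96.0 (3.05, SE 0.15), and PKNOX2, a homeodomain factor, from 8.33, 8.43 and 7.13 to 54.7, 58.3 and 52.6 (2.85, SE 0.10). FOSB, a subunit of AP-1, was uneven in BEFs, at 2.90, 3.24 and 9.77, and was at 62.7, 40.8 and 42.2 on day 3.

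The largest falls among genes with a term were E2F8, E2F1, E2F2, MYBL2, CBFA2T3, SMAD7, HMGB1 and NFATC1. E2F1, which drives entry into S phase, fell from 11.8, 9.71 and 11.02 FPKM to 1.10, 1.11 and 1.03 (-3.34, SE 0.20), and MYBL2, which acts in the cell cycle too, from 39.6, 37.4 and 39.2 to 4.69, 6.30 and 6.52. HMGB1, an abundant chromatin protein, fell from 163, 164 and 132 to 31.0, 33.4 and 32.7.

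The labels call the day 3 cells induced adipocytes. Fibroblast markers summed to far more FPKM than adipocyte markers in both groups. The lists hold unlike genes and the series has no natural adipocytes, so the 2 sums cannot judge the label. Of 20 adipocyte markers 17 were tested, with 6 higher (35.3%) and 3 lower (17.6%), beside 18.2% and 9.94% of all genes (median 0.85, or 0.22 with limma without a filter), and LEP, AQP7 and RETN were too low to test. Their summed FPKM was 133 to 142 in BEFs and 102 to 133 on day 3. Without RBP4 it was 38.8 to 41.8 in BEFs and 64.2 to 85.8 on day 3. PPARG, the leading factor of adipogenesis, rose from 2.23, 1.86 and 2.41 FPKM to 9.17, 5.40 and 6.71, and LPL, lipoprotein lipase, from 0.91, 0.81 and 0.91 to 3.96, 4.32 and 5.53. PNPLA2, a lipase of lipid droplets, rose from 8.46, 8.21 and 7.05 to 40.4, 32.6 and 32.8.

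ADIPOQ, adiponectin, rose but stayed at 1.71, 1.95 and 1.96 FPKM. PLIN1, a coat of large lipid droplets, was at 1.45, 1.31 and 1.55 and then 1.47, 0.88 and 1.06 (adjusted p = 0.157), and CEBPA was under 1 FPKM in each of the 6 samples. FABP4, a fatty acid carrier of adipocytes, was lower, at 17.2, 16.4 and 18.2 and then 13.2, 3.31 and 9.20 (-1.04, SE 0.37, adjusted p = 0.0305). The call for FABP4 was lost without any one of the BEFs and without CiADCs-3d replicate 2 or replicate 3, with values of -1.10 to -0.66. RBP4, retinol binding protein, fell from 101, 93.6 and 97.2 to 47.0, 37.5 and 38.7, and CIDEC, a protein of lipid droplet fusion, from 0.46, 0.55 and 1.54 to 0.10, 0.14 and 0.24.

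Fibroblast markers fell in part. Of 19 tested, 9 were lower (47.4%) and 1 higher (5.26%), beside 9.94% and 18.2% of all genes (median -0.28), and TCF21 was at 0 throughout. Their summed FPKM was 19433 to 20200 in BEFs and 13593 to 17533 on day 3. Without S100A4, the one called higher, it was 16048 to 17361 and then 8319 to 10730. COL1A1, the main chain of type I collagen, fell from 4690, 4601 and 4295 FPKM to 924, 1378 and 1524 (-1.84, SE 0.17). THY1 was at 535, 517 and 535 FPKM and then 503, 512 and 580 (-0.01, SE 0.11, adjusted p = 0.934), and COL3A1 at 2007, 1998 and 1870 and then 1770, 2526 and 2554 (0.21, SE 0.17, adjusted p = 0.306). Without replicate 1 of CiADCs-3d, COL3A1 passed the test at 0.39 and PLIN1 at -0.55, both under the 2-fold mark. FAP, fibroblast activation protein, fell from 23.7, 23.4 and 19.8 to 5.52, 4.75 and 8.61.

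**Figure D5:**
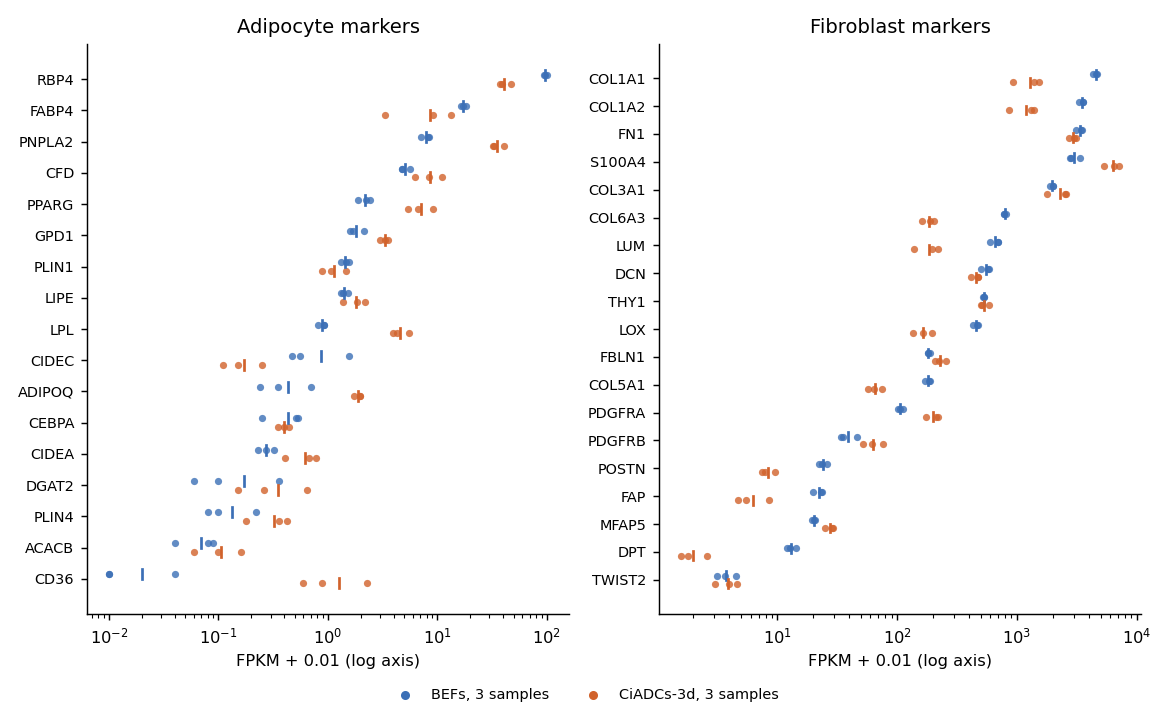
FPKM + 0.01 on a log axis for the adipocyte markers (left) and fibroblast markers (right) that were tested, ordered by their level in BEFs, with a point per sample and a bar at the mean of 3. On day 3 most adipocyte markers lie under 10 FPKM, PPARG, LPL, PNPLA2 and ADIPOQ lie to the right of BEFs and RBP4, FABP4 and CIDEC to the left, and many fibroblast markers remain above 100.

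Markers of other cell types were low, with single genes that rose. Counts in this paragraph and the next stand beside 18.2% higher and 9.94% lower of all genes tested. Each list rests on 4 to 11 tested genes. Of 10 leukocyte markers 4 were tested and 3 were higher, and their summed FPKM was 1.1 to 1.6 in BEFs and 26.7 to 29.0 on day 3. CD14, a receptor for bacterial lipopolysaccharide, made most of it, at 0.49, 0.13 and 0.70 and then 24.1, 24.1 and 23.6, while PTPRC, which leukocytes share, was at 0 in all samples. Of 10 endothelial markers 6 were tested, with 3 higher and 1 lower, a summed FPKM of 23.8 to 25.7 and then 49.5 to 64.8, and EMCN and CLDN5 at 0. Of 14 keratinocyte markers found, 11 were tested, with 3 higher and 1 lower, and their sums overlapped, at 63.6 to 97.2 and then 72.7 to 98.0.

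The muscle list had 1 higher and 2 lower of 4 tested, at 3.4 to 4.1 FPKM and then 1.1 to 2.4, with MYOD1 and MYOG at 0. The melanocyte and Schwann cell list had 1 higher of 4 tested, at 37.4 to 40.1 and then 46.1 to 49.3, with 6 of its 11 genes at 0. The cartilage and bone list had 3 higher and 2 lower of 7, at 55.8 to 59.2 and then at most 23.6, mostly ACAN. The neuronal list had 2 higher and 2 lower of 4, at 26.4 to 27.6 and then 11.5 to 15.7, with 4 of 11 genes at 0. The part of these genes in the cytokine and adhesion results was not tested.

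Genes often used as references moved too. Of 14, 1 was called higher (7.14%) and 3 lower (21.4%), beside 18.2% and 9.94% of all genes (median -0.65). On the adjusted p alone 3 were higher and 9 lower, beside 30.9% and 29.1% of all genes. GUSB (0.00, SE 0.09, adjusted p = 0.988) was among those that did not pass. ACTB, the usual reference, went from 2931, 2932 and 3064 FPKM to 750, 1177 and 987 (-1.63, SE 0.21), and GAPDH from 2458, 2410 and 2519 to 1340, 1281 and 1257 (-0.95, SE 0.10).

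Single genes differed widely among the 3 day 3 samples. PSAT1, of serine synthesis, had the widest range, at 108 FPKM in replicate 1, 16.3 in replicate 2 and 33.6 in replicate 3, against 160, 163 and 124 in BEFs (adjusted p = 0.0138). STC2, stanniocalcin 2, was at 28.2, 4.98 and 8.74 against 33.5, 29.9 and 27.2, and SLC7A5, an amino acid transporter, at 41.4, 8.90 and 14.2 against 27.4, 26.8 and 26.0 (adjusted p = 0.482). Without replicate 1, SLC7A5 was called lower at -1.20. PSAT1 no longer passed without CiADCs-3d replicate 3, at -1.30. STC2 (adjusted p = 0.0335) no longer passed without any one of the BEFs, without CiADCs-3d replicate 2 or 3, without replicate 3 of the day 6 samples, with the 6 samples alone, or with DESeq2, at -1.22 to -0.76. For these genes, as for RCAN1 at 51.8, 11.3 and 23.1, replicate 1 lay nearest to BEFs or above them and replicate 2 lowest. TXNIP, an inhibitor of thioredoxin, kept the same order at a raised level, at 81.3, 18.0 and 37.9 against 11.2, 10.7 and 6.09. PCK2, a mitochondrial carboxykinase and the one called gene of the citrate cycle, was also highest in replicate 1, at 422, 177 and 248 FPKM against 89.7, 86.0 and 80.8.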

How the data were processed

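The authors extracted total RNA from the bulk samples, sequenced its mRNA enriched on oligo(dT) beads, and deposited 1 table for all 9 samples with an expected count and an FPKM value per gene and sample. Per the submitters' processing notes, HISAT2 2.2.4 and fastp 0.18.0 were used with RSEM and StringTie 1.3.1. The paper's methods instead name TopHat for alignment and HTSeq for counting, and the difference was not resolved. The genome build and the strand setting of the counting are not given in the sources used here. Genes that share sequence with close copies (among them UBD, GSTA1, ACTB, ACTG1, TUBA1B and the MHC genes) have uncertain counts.

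The deposited expected counts, 94.5% of which were whole numbers, were rounded. Genes were kept by the edgeR filter (minimum count 10, minimum total count 15), which left 14020 of 21512, and 3749 genes had no count in any sample. Libraries were scaled by TMM, and the quasi-likelihood test of edgeR 4.0.16 in R 4.3.3 was fitted to all 9 samples, whose groups share 1 estimate of the spread, with p-values adjusted by Benjamini and Hochberg over all genes tested. FPKM served for levels and for limma 3.58.1 on log2(FPKM + 1), an alternative. DESeq2 1.42.0, other scalings, filters and left-out samples were alternatives too. Figures used matplotlib 3.10.9, and the fits were checked on simulated counts. Symbols came from the RefSeq table by Gene ID for 20582 of 21039 IDs. Pathways and GO terms are the table's own. Intervals and floors cover counting error only.

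Genes were named by fixed rules: the 15 highest and 15 lowest fold changes of at least 10 CPM, the 10 most abundant of each group, the 10 largest rises and falls in FPKM, up to 4 called genes of each pathway, marker lists, transcription factors, the 10 genes of widest range on day 3, and genes at 0 in one group. The members, lists and rules were chosen with earlier results of these data known. Some genes that these rules name are not reported here.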

Additional observations from a re-analysis of the deposited data

How the results depend on the processing

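The count of higher genes was 1692 with at least 10 counts required in every sample, 1433 with limma on log2(FPKM + 1), 1440 with limma without a filter and 4329 on the adjusted p alone, against 2552. The count of lower genes was 928 with limma on log2(FPKM + 1) and 4083 on the adjusted p alone, against 1393. The other settings gave counts within 1.5 times, and no gene was called in the opposite direction under any setting run. Leaving out 1 sample at a time gave 2498 to 2675 higher and 1368 to 1429 lower. With the replicate block the counts were 2507 and 1382. Deviations of equally numbered samples correlated at 0.017, -0.071 and 0.014, so the numbers were not taken to pair the samples. Some medians moved by over 1.5 times, among them those of PPAR signaling (0.34) and Adipocytokine signaling (0.31) with limma without a filter, Cholesterol metabolism (0.24) with limma, and IL-17 signaling (0.29) with at least 10 counts in every sample. The cause was not tested. With 3 samples a group and no untreated day 3 cells, treatment, medium and time cannot be told apart.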
